A study of Drosophila melanogaster with 6 samples.

Results

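The Obp56 genes are 9 neighbouring odorant-binding protein genes of the fruit fly Drosophila melanogaster, Obp56a to Obp56i. They were taken by name from the platform annotation: a probe set (the group of short probes that reports 1 transcript) was accepted if the annotation gave it 1 gene symbol and that symbol was one of the 9. Each of the 9 genes had 1 such probe set, so all 9 were measured, out of 11982 genes named in this way on the array. In the RefSeq gene table (assembly Release 6 plus ISO1 MT) they lie on the right arm of chromosome 2, in alphabetical order.

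The RNA came from whole heads of mated w1118 females, a white-eyed laboratory strain that was the background of both diet groups. Virgin females aged 0 to 3 days spent 48 hours with isogenic males and then kept for 7 days on their diet, mostly at 23 degrees C. The normal diet group (3 arrays) ate a medium with 10% yeast, 10% sucrose, 5.2% cornmeal and 1.2% agar, and the high fat diet group (3 arrays) ate this medium with 20% (w/v) coconut oil added. Each array was hybridised with RNA pooled from 25 to 50 heads, and the design text calls the 3 samples of a diet biological replicates.

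Odorant-binding proteins are small secreted proteins that carry hydrophobic molecules through the watery fluid of insect sense organs. Support cells make them and release them around the dendrites of smell and taste neurons, and some family members are instead made in reproductive tissue and transferred to females in seminal fluid. In the blowfly Phormia regina, an Obp56a relative from the mouthparts binds and solubilises fatty acids of the food. The comparison described here asks how the 9 fly genes differed in the head between a diet with and a diet without added fat.

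Values are log2 signal intensities. A difference is the high fat mean minus the normal diet mean on the log2 scale, given with its standard error (SE) from a limma fit over all 18769 probe sets. A gene was taken as measurable on an array if its signal lay above background, the 95th percentile of 50 control probe sets that match proteins of other organisms (15.2 to 21.8 units, by array). Between 65.3% and 70.0% of probe sets were above background on each array. In RNA from bulk heads, fewer cells of a type and less RNA per cell cannot be told apart.

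Obp56a, Obp56d, Obp56e, Obp56f, Obp56g and Obp56h were above background on all 6 arrays, and Obp56b, Obp56c and Obp56i on 1 array each. In 5 of these 6 measurable genes, all except Obp56h, every high fat array lay above every normal diet array. The diets did not overlap in this direction in 11.5% of the 10703 probe sets measurable on every array, and in 8.46% of all probe sets. None of the 9 genes was among those without overlap in the other direction, which made up 9.23% of all probe sets. The median difference was 0.49 over the 9 genes and 0.59 over the 6 measurable ones, against -0.03 over all probe sets. The median of the 9 was 0.22 without normal diet replicate 1, and 0.75 when arrays were centred on their medians, which moved that of all probe sets to 0.22. After adjustment over all probe sets, limma called 0 of the 9 genes and 0% of the 18769 probe sets (smallest adjusted p = 0.0749). At an unadjusted p under 0.05 it found 3 of the 9 genes, all higher on the high fat diet (Obp56a, Obp56e and Obp56f), beside 2.95% of all probe sets higher and 4.91% lower (2.58% and 4.67% of those measurable on every array). With variance trend and robust moderation, which estimates the spread from probe sets of similar brightness and gave 26 calls in all, Obp56a and Obp56e passed.

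**Figure D1:**
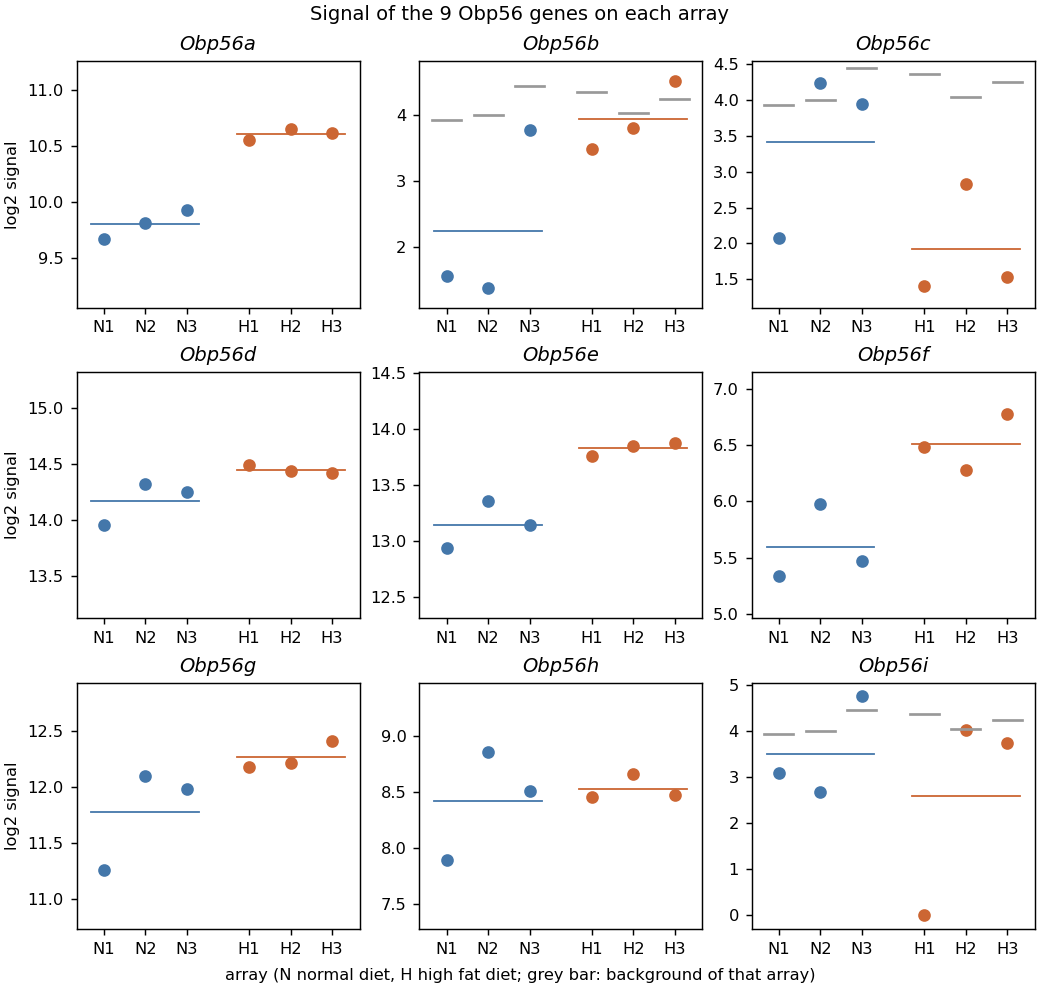
Log2 signal of each Obp56 gene (vertical axis, with its own range in each panel) on the 3 normal diet arrays (N1 to N3, blue) and the 3 high fat arrays (H1 to H3, orange). Horizontal lines are diet means, and grey bars mark the background of an array where it falls in the panel's range; the diets are apart in Obp56a, Obp56d, Obp56e, Obp56f and Obp56g, and Obp56b, Obp56c and Obp56i lie mostly under the grey bars.

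Obp56a had the smallest p of the group. Its log2 signal was 9.67, 9.82 and 9.93 on normal diet replicates 1, 2 and 3 and 10.56, 10.65 and 10.62 on high fat replicates 1, 2 and 3. The diets were separated by a gap of 0.63, wider than the range of 0.26 within the normal diet or 0.09 within the high fat diet. The mean was 9.81 ± 0.13 (SD, n = 3) on the normal diet and 10.61 ± 0.05 (n = 3) on the high fat diet, a difference of 0.81 (SE 0.12, limma adjusted p = 0.312). As a ratio this is 1.75, with a 95% interval of the limma fit from 1.41 to 2.16. Its unadjusted p of 9.81e-04 ranked number 59 among all probe sets. With variance trend and robust moderation its adjusted p was 0.0178, and over all alternatives it ranged from 0.0178 to 0.628.

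Obp56d is known from both smell and taste organs of the adult fly. Its log2 signal was 13.95, 14.32 and 14.25 on the normal diet and 14.49, 14.44 and 14.42 on the high fat diet. The high fat arrays were all higher, but the gap of 0.10 was smaller than the range of 0.37 within the normal diet. The difference was 0.28 (SE 0.14, limma adjusted p = 0.616), a ratio of 1.21 with an interval from 0.945 to 1.55. The mean signal of 22355 units on the high fat diet lies near the top of the scale, where the brightest probe set of any array read 33373.

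Obp56e, Obp56f and Obp56g, which flies also make in the male reproductive tract and pass on in seminal fluid, were all measurable in these female heads. Obp56e had log2 signals of 12.94, 13.36 and 13.14 on the normal diet and 13.77, 13.86 and 13.88 on the high fat diet. Its gap between the diets was 0.41, as wide as the range within the normal diet (0.41). The means were 13.15 ± 0.21 and 13.83 ± 0.06 (SD, n = 3 each), a difference of 0.68 (SE 0.15, limma adjusted p = 0.507) and a ratio of 1.61 (interval 1.24 to 2.08). With variance trend and robust moderation the adjusted p of Obp56e was 0.0417, and over all alternatives it ranged from 0.0417 to 0.752. The annotation places an antisense RNA gene, asRNA:CR44509, across Obp56e, and how far its RNA enters this signal was not tested.

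Obp56f was the measurable gene nearest to background. It read 5.33, 5.98 and 5.47 on the normal diet and 6.48, 6.28 and 6.78 on the high fat diet, all above the background of 3.93 to 4.44 log2 units. The gap of 0.30 was narrower than the spread within the normal diet (0.65). The means were 5.59 ± 0.34 and 6.51 ± 0.25 (SD, n = 3 each), a difference of 0.92 (SE 0.24, limma adjusted p = 0.598) and a ratio of 1.89 (interval 1.25 to 2.87). This difference exceeded that of 99.7% of the probe sets above background on all arrays.

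Obp56g, required in males for the mating plug to form, read 11.26, 12.10 and 11.99 on the normal diet and 12.18, 12.22 and 12.41 on the high fat diet. Normal diet replicate 1 was far below the other 5 arrays, and the gap between the diets was only 0.08. The difference was 0.49 (SE 0.26, limma adjusted p = 0.620), a ratio of 1.40 with an interval from 0.889 to 2.21. Without normal diet replicate 1 the difference was 0.22.

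Obp56h, whose knockdown in males alters mating behaviour, showed no separation of the diets. It read 7.90, 8.86 and 8.50 on the normal diet and 8.46, 8.66 and 8.47 on the high fat diet, so the high fat values lay inside the range of the normal diet. The difference was 0.11 (SE 0.27, limma adjusted p = 0.911), and its interval, from a ratio of 0.672 to one of 1.74, leaves room for a change of the size seen in Obp56e. Without normal diet replicate 1 the sign turned, to -0.15.

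The other 3 genes were mostly under background, and no ratio is given for them. Obp56b read 1.55, 1.37 and 3.78 on the normal diet, all below background, and 3.49, 3.81 and 4.53 on the high fat diet, of which only the last was above it. Obp56c read 2.07, 4.24 and 3.94 on the normal diet, of which only the second was above background, and 1.41, 2.83 and 1.53 on the high fat diet. Obp56i, another gene known from seminal fluid, read 3.08, 2.67 and 4.75 on the normal diet, of which only the last was above background. On the high fat diet it read 0.00, 4.01 and 3.75, the first at the floor set for values under 1 unit. In all 3 genes the diets overlapped, and the limma adjusted p was 0.610 for Obp56b, 0.612 for Obp56c and 0.828 for Obp56i.

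Normal diet replicate 1 was the lowest array of its diet in all 6 measurable Obp56 genes. It was the lowest of its diet in 16 of 22 other measurable odorant-binding proteins and in 27.0% of all probe sets measurable throughout. The same array had the highest signal of all 6 arrays in 5 of the 6 midgut markers: Jon65Aiii, a serine protease, read 9.59 there against 3.59 and 5.95 on the other normal diet arrays, and the maltase Mal-A1 read 10.56 against 6.50 and 6.73. Summed over the 6 midgut markers, signal was 440 to 3994 units on the normal diet and 389 to 497 on the high fat diet. Without this array the differences were 0.74 for Obp56a, 0.58 for Obp56e, 0.79 for Obp56f and 0.17 for Obp56d. The 5 genes without overlap must stay so whichever array is left out, so that count says nothing about this array. Its part in the results was not otherwise tested.

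**Figure D2:**
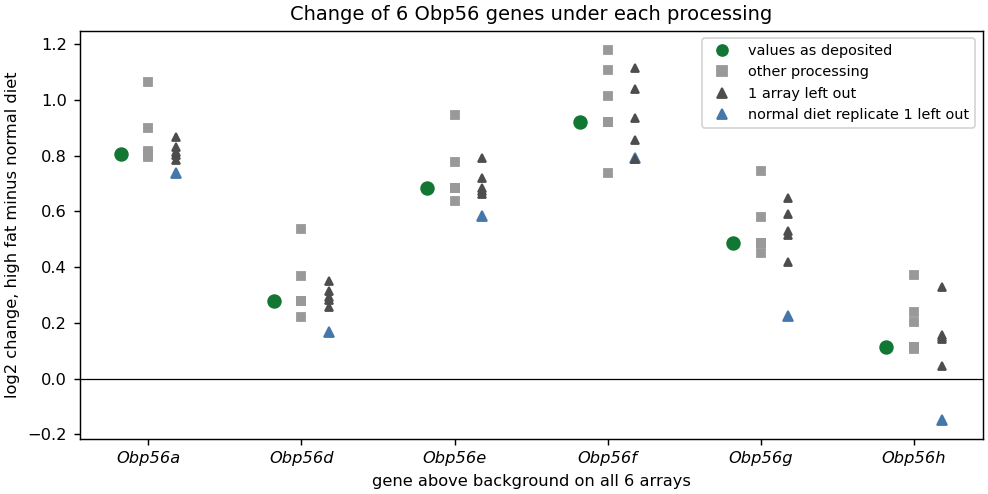
Difference in log2 signal between high fat and normal diet (vertical axis) for the 6 Obp56 genes above background on all arrays. Green circles are the values as reported, grey squares other ways of processing, triangles fits with 1 array left out, blue for normal diet replicate 1; Obp56a, Obp56e and Obp56f stay above 0.5 throughout and Obp56h crosses 0.

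The difference between 2 genes on the same array does not depend on the choice of 1 scaling factor per array. Quantile normalization goes beyond such a factor and can change it. There the diet differences were 0.82 for Obp56a and 0.22 for Obp56d, against 0.81 and 0.28 as deposited. Obp56d, as given above, reads near the top of the scale, and whether this narrows its own difference was not tested. Obp56a minus Obp56d was -4.28, -4.50 and -4.32 on the normal diet and -3.93, -3.78 and -3.80 on the high fat diet. The diets did not overlap, and Obp56a gained 0.53 on Obp56d. Obp56e minus Obp56d was -1.01, -0.96 and -1.10 on the normal diet and -0.72, -0.58 and -0.54 on the high fat diet, again without overlap, a gain of 0.41. Obp56f gained 0.64 on Obp56d and 0.81 on Obp56h, and Obp56a and Obp56e gained 0.69 and 0.57 on Obp56h. Obp56g gained 0.38 on Obp56h. These were the 7 of the 15 pairs in which the diets did not overlap, and each of them holds Obp56d or Obp56h. The 15 pairs come from 6 genes, so they are not independent. Each pair was ordered so that its diet difference was positive, and the share without overlap over all gene pairs was not worked out. Obp56d minus Obp56h, by contrast, overlapped (5.75 ± 0.30 and 5.92 ± 0.13, SD, n = 3 each), as did the pairs among Obp56a, Obp56e and Obp56f. Each of the 7 pairs had an exact two-sided permutation p = 0.1, the smallest that 3 against 3 arrays can give, and an adjusted p = 0.214 over the 15 pairs, so none could pass 0.05.

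**Figure D3:**
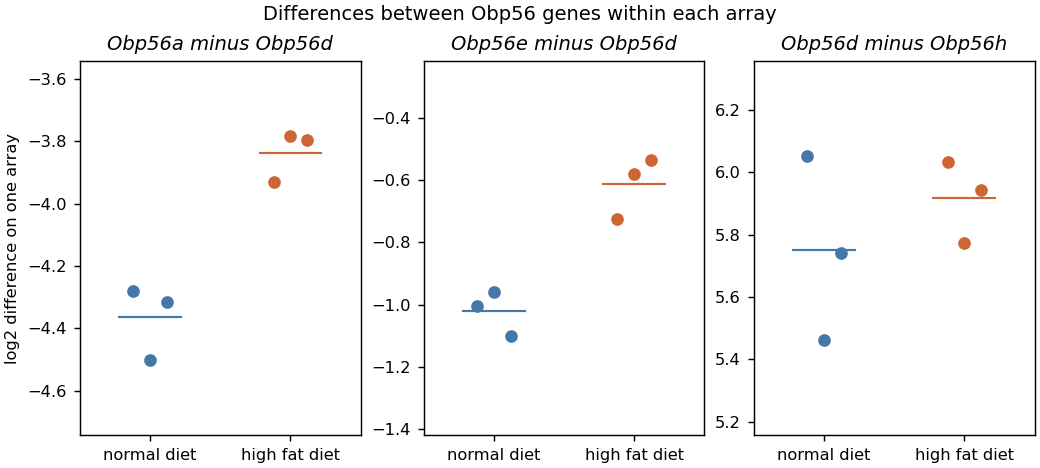
Log2 signal of one Obp56 gene minus that of another on the same array (vertical axis), by diet, with 1 point per array and a line at the mean. Obp56a and Obp56e each gained on Obp56d with no overlap between the diets, and Obp56d minus Obp56h overlapped.

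Along the chromosome, the 9 genes are unevenly spaced. Obp56a, Obp56b, Obp56c and Obp56d follow each other with no annotated gene between them, Obp56e and Obp56f lie next to each other after the antisense gene, and 112 genes, 96 of them ribosomal RNA genes, separate Obp56f from Obp56g. Of 129 neighbouring genes (those between the members and the 5 nearest beyond each end), 6 had a named probe set, and 2 of these were above background on all arrays. Toll-7, a Toll family receptor between Obp56h and Obp56i, had a difference of -0.39 (SE 0.31, limma adjusted p = 0.700). CG34198, before Obp56a, had one of -0.04 (SE 0.58, adjusted p = 0.984). CG15128, the nearest measured gene before Obp56a, was higher on the normal diet without overlap but above background on 1 array only (-0.71, SE 0.26, adjusted p = 0.610). Or56a, the odorant receptor for geosmin that lies beside Obp56g, was below background on every array.

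**Figure D4:**
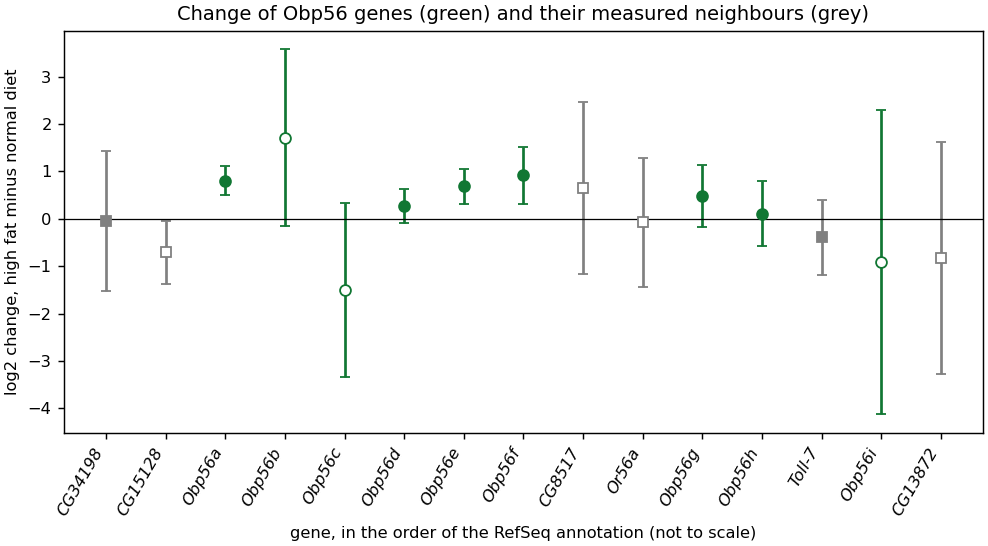
Difference in log2 signal between high fat and normal diet (vertical axis) for the 9 Obp56 genes (green circles) and the 6 measured neighbours (grey squares), in chromosomal order and not to scale. Bars are 95% intervals of the limma fit, and open symbols mark genes not above background on all 6 arrays; the intervals of Obp56a, Obp56e and Obp56f lie above 0, while those of the 2 filled neighbours include 0.

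For each measurable member, the genes with the most similar course over the 6 arrays were found by the root mean square (RMS) difference of log2 signals after each gene's mean was subtracted, among 8325 other genes above background on all arrays. Obp56a and Obp56e were close to each other (RMS difference 0.12 log2 units), and only CG4576 (0.05) and CG17919 (0.09) were nearer to Obp56a. The nearest genes to Obp56e were CG17919 and CG5973 (0.06 each) and Antdh, a short-chain dehydrogenase of the antenna (0.06). Antdh read 8.74, 9.10 and 8.87 on the normal diet and 9.52, 9.61 and 9.47 on the high fat diet, all higher on the high fat diet. The nearest genes to Obp56d were CG6429 (0.04), EbpIII, a chemosensory protein first found in the ejaculatory bulb (0.05), and Hacd1, a dehydratase of fatty acid elongation (0.05). Obp56f had no gene as close. Its nearest were CG31121 (0.14), Gfat1, the first enzyme of hexosamine synthesis (0.15), and CG14221 (0.18). Obp56g was most like CG7299 (0.03) and Obp49a, another odorant-binding protein (0.08), and then CG9747 (0.12). Obp49a shared with it a low normal diet replicate 1, at 10.46 against 11.19 and 11.00. Obp56h was most like yellow-d, robl37BC and CG30026 (0.10, 0.11 and 0.11). With 6 arrays and so many genes, near profiles are only a description of these arrays.

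Of the 39 other odorant-binding proteins measured, 22 were above background on all arrays. In 7 of these every high fat array was above every normal diet array, beside 11.5% of all probe sets measurable throughout. The median difference of the 39 was -0.03, and 0.14 over the 22. The smallest p values were those of Obp28a, an antennal protein that read 6.95, 7.09 and 7.05 on the normal diet and 8.26, 8.50 and 8.57 on the high fat diet (1.41, SE 0.13, limma adjusted p = 0.128), and Obp69a, another antennal protein (0.90, SE 0.17, adjusted p = 0.396). Obp58d came next, above background on 1 array only (-1.12, SE 0.43, adjusted p = 0.610). Of the 8 measured genes on a list of antennal odorant-binding proteins, 6 were above background on all arrays. Of those, 3 lay higher on the high fat diet without overlap. The median difference was 0.54 over the 8 and 0.86 over the 6. For the Obp56 genes, as given above, it was 0.49 over all 9 and 0.59 over the 6 measurable ones.

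Values of other tandem groups of the family stand beside these. Of the Obp57 genes, some of them known from taste hairs of the legs, 4 were measured, 3 on all arrays, with a median difference of 0.09, and 1 (Obp57a, 0.15, SE 0.11) was higher without overlap. The 4 Obp99 genes were all above background, overlapped between the diets and had a median of -0.31. The 3 Obp50 genes measured had a median of -0.80, but none was above background on all arrays. Of 3 other seminal fluid odorant-binding proteins, Obp8a was measurable (0.28, SE 0.20), with overlap, and Obp22a and Obp51a were below background on every array. Whether the Obp56 genes differ from these groups as a set was not tested.

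**Figure D5:**
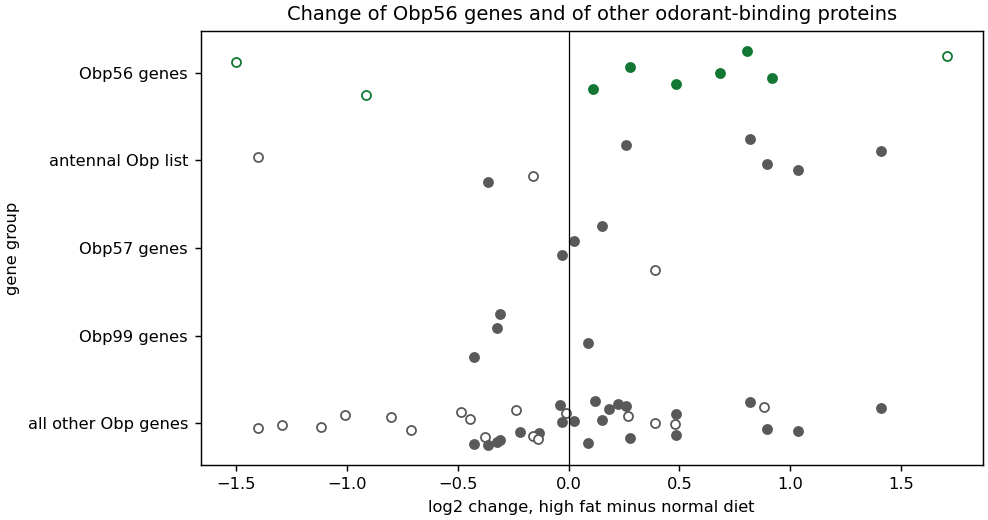
Difference in log2 signal between high fat and normal diet (horizontal axis), 1 point per gene, for the Obp56 genes (green) and for other odorant-binding proteins (grey), with the lowest row holding all 39 others, those of the rows above it included. Filled points are above background on all 6 arrays; the 6 filled Obp56 genes lie between 0.11 and 0.92.

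Other secreted or membrane proteins that surround smell and taste neurons were listed beside the odorant-binding proteins. Of 8 measured, 7 were above background on all arrays, 4 of them higher on the high fat diet without overlap and 1 lower. Among all probe sets measurable on every array, these shares were 11.5% and 11.3%. The median difference of the list was 0.55 over the 8 and 0.51 over the 7. Jhedup, an esterase, had the smallest p (1.24, SE 0.20, limma adjusted p = 0.334), followed by Antdh (0.63, SE 0.14, adjusted p = 0.542) and Snmp2, a CD36-type membrane protein of support cells (0.59, SE 0.21, adjusted p = 0.610). Snmp1, the CD36-type co-receptor of pheromone neurons, was lower without overlap (-0.45, SE 0.20, adjusted p = 0.610).

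Every measured neuron and photoreceptor marker was above background on all 6 arrays, as the tissue label would have it. Several marker lists of cell types and tissues moved with diet as well, among them that of the ovary, which is no part of the head. Of 8 measured ovary markers, all 8 averaged less on the high fat diet and 7 did not overlap; their summed signal was 1115 to 11492 units on the normal diet and 113 to 184 on the high fat diet. The ovary marker osk read 10.70, 8.70 and 11.05 on normal diet replicates 1, 2 and 3. On high fat replicates 1, 2 and 3 it read 3.76, 4.02 and 4.29. Ovary signal followed diet, so its part in any diet difference given here cannot be told apart from diet and was not tested. Summed signal was higher on the high fat diet without overlap for 5 neuron markers (8999 to 9976 against 6570 to 8477 units; 4 of 5 without overlap). It was likewise higher for 3 photoreceptor markers (24277 to 27088 against 17836 to 21903; 3 of 3) and for 5 muscle markers (9620 to 10660 against 7047 to 8378; 3 of 5). Their median differences were 0.33, 0.33 and 0.25, and the largest of single markers 0.41 (cac), 0.41 (chp) and 0.49 (Tm2). The differences of Obp56a, Obp56e and Obp56f were 0.81, 0.68 and 0.92. Obp56g was at 0.49, or 0.22 without normal diet replicate 1, and Obp56d at 0.28. For 4 hemocyte markers the sums were 1794 to 1934 against 1284 to 1582 units, and 3 of the 4 were higher without overlap. Among all probe sets measurable on every array, 11.5% were higher without overlap and 11.3% lower. Among all probe sets these shares were 8.46% and 9.23%. Sums overlapped for 4 glia markers (19667 to 20247 against 18973 to 20078) and 7 fat body markers (141439 to 149210 against 124763 to 162656).

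The summed signals of sense organ markers overlapped between the diets. Of 7 antennal markers measured, 5 were above background on all arrays. Their median difference was 0.40 over the 7 and 0.51 over the 5. On this list, lush and Obp83b are themselves odorant-binding proteins. The sums of all 7 were 464 to 863 units on the high fat diet and 443 to 701 on the normal diet. Among the 5 above background, the odorant co-receptor Orco was higher without overlap (0.78, SE 0.19, limma adjusted p = 0.579) and Snmp1 lower without overlap, as given above. Of 8 taste organ markers, 3 were above background on all arrays, and the sums of all 8 were 134 to 208 against 145 to 182 units. The median difference of these 8 was -0.035. The 11 markers of the male accessory gland and ejaculatory bulb, the known sources of seminal fluid, summed to 107 to 138 units on the high fat diet and 96.7 to 139 on the normal diet; 0 were above background on all arrays and 6 on none. In this list Acp62F was above background on 4 arrays and higher on the high fat diet without overlap (1.53, SE 0.57, limma adjusted p = 0.610). The part of any of these cell types in the Obp56 values was not tested.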

How the data were processed

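Each array's deposited column holds linear signal intensities, 1 per probe set, made by the authors with Affymetrix Expression Console per the submitters' processing notes. Neither its version nor its summarisation method is given in the sources used here. With 2% trimmed from either end, the mean of every array was 500, the mark of 1 scaling factor per array, and array medians ranged from 59.0 to 86.2. For Act5C, whose control probes at both ends of the transcript report on RNA integrity, 3' over 5' signal was 20.4 on high fat replicate 2 and 10.5 to 13.2 on the other arrays.

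Values under 1 were set to 1 (2010 values) and log2 was taken. Without the 183 controls, 18769 probe sets entered a limma fit (version 3.58.1, R 4.3.3; lmFit, then eBayes) of high fat minus normal diet on 6 arrays with no covariate, with Benjamini-Hochberg adjustment over all of them and a threshold of 0.05. The fit was run on simulated data as a check of the code only. Single genes and pairs of members were also tested by exact permutation, in which the smallest possible p was 0.1. The 5 genes without overlap each had a permutation p = 0.1, so none could pass 0.05. The annotation gave 13647 probe sets 1 symbol, 402 several and 4720 none here, and for a gene with several the probe set with the highest mean was used. Where 3 list entries used older symbols (PebIII, antdh, nos), the current ones were taken from the RefSeq table.

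All 9 members are named. Of the other lists, up to 3 genes with the smallest p are named, beside genes near the members on the chromosome or in profile; Jon65Aiii, Mal-A1, Obp49a, Obp8a, Obp22a, Obp51a, Obp57a, Snmp1, Acp62F and Or56a were in part chosen after their values were seen. The members and lists were chosen with earlier results of these data known. Precision is limited by having 3 arrays per diet. Same-numbered arrays of the 2 diets did not deviate together (correlations over probe sets of -0.07, 2e-04 and 0.03), so no pairing was used. Alternatives were quantile normalization, 2 kinds of centring, another estimate of the spread, another floor or pseudocount, leaving out dim probe sets or single arrays, averaging probe sets and a replicate block.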

Additional observations from a re-analysis of the deposited data

How the results depend on the processing

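Of 132 values of single Obp56 genes under the alternatives, 128 kept their sign and their side of the threshold, 2 passed it (Obp56a and Obp56e with variance trend and robust moderation) and 2 changed sign. Obp56h was at -0.15 without normal diet replicate 1 (range with 1 array left out -0.15 to 0.33), and Obp56i at 0.38 without high fat replicate 1 (-1.63 to 0.38), where that array was at the floor. The count of calls over all probe sets was 26 (18 higher, 8 lower) with variance trend and robust moderation, 5 with dim probe sets left out, 167 (16 higher, 151 lower) without normal diet replicate 2 and 0 to 167 with 1 array left out. The median over the 9 genes, 0.49 as reported, was 0.75 after median centring, which moved the median of all probe sets from -0.03 to 0.22, and 0.22 to 0.65 with 1 array left out, lowest without normal diet replicate 1. The number of genes without overlap between the diets was 5 to 6 with 1 array left out. It could not fall below 5, because leaving out an array cannot make separated diets overlap. Same-numbered arrays share only a number: with the replicate block, 0 probe sets were called by limma, and in 7 of the 9 genes, 6 higher and 1 lower, the 3 same-numbered differences had the same sign. Normal diet replicate 1 correlated best with high fat replicate 2 (0.11), not with its own number. Centring on the probe sets above background on all arrays, chosen after the data were seen, gave a median of 0.58 and 5 genes without overlap. Each Obp56 gene has 1 probe set, so averaging probe sets changed no value of theirs. Signals under background limit what can be said of Obp56b, Obp56c and Obp56i.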
